A study of Mus musculus with 9 samples.

Results

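The cytosolic ribosomal protein genes of mouse liver are described here across lean mice, ob/ob mice and ob/ob mice that had received taurine-conjugated ursodeoxycholic acid (TUDCA), a bile acid. The genes were chosen by symbol and not by their signal, though earlier results of these data were known when the set was chosen. Symbols beginning with Rpl, Rps or Rplp and a digit were taken, together with Rpsa, and Rps6k genes and symbols with -ps were left out. Of the 19938 genes measured by probe sets with exactly 1 symbol, 63 met this rule, 38 with a large subunit symbol and 25 with a small subunit symbol. They were read by 219 probe sets, averaged per symbol, and 39 of the 63 genes had more than 1. The rule also took in 9 symbols that are no core subunits of the common ribosome, namely the copies Rpl3l, Rpl10l, Rpl32l, Rpl39l, Rps4l, Rps27l and Rps23rg1, and Rpl7l1 and Rps19bp1. Rpl32l and Rps23rg1 were placed among them after the annotation had been read. The remaining 54 genes are called core genes below, 33 of the large and 21 of the small subunit.

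Liver RNA was hybridized to 9 Affymetrix arrays, 3 per group, which the labels call biological replicates. OB-TUDCA mice were B6.V-Lepob/J ob/ob mice that received TUDCA by gavage, 500 mg/kg per dose, 2 doses a day over 3 weeks. OB-control mice were ob/ob mice of the same strain, and N-control mice were wildtype C57BL/6J mice, and both received tap water by gavage on that schedule. All were males, 6 weeks old when bought, fed normal chow and killed after 8 h without food, and 3 of the 6 mice that the methods give per group were hybridized. The ob/ob mutation removes leptin from the whole body from birth, so the genotype and the obesity that comes with it cannot be told apart. The mean log2 signal of 6 hepatocyte markers, Alb among them, was 12.70 to 12.95 on every array. N-control replicate 2 also carried RNA of pancreatic acinar genes, with a mean log2 signal of 11.26 over 6 genes against 4.56 to 5.13 on the other arrays. The array medians over all genes lay between 4.50 and 4.58.

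A ribosome is built from a large and a small subunit, each a core of ribosomal RNA to which a set of proteins is bound. The small subunit reads the messenger RNA, and the large subunit joins the amino acids. The messenger RNAs of the subunit proteins typically begin with a C followed by a run of pyrimidines (the terminal oligopyrimidine tract), through which the kinase mTOR controls their translation. In liver these messages are among the most abundant, and the hepatocyte uses its ribosomes for secreted plasma proteins as well as for its own.

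The sequences around the start sites are shown because the tract lies there. RefSeq promoters of build GRCm38.p6, running from 250 bases before to 50 bases after the start, were matched by symbol to 51 of the 63 genes, 43 of them core genes. A tract of at least 8 bases that began with C and held only C and T thereafter was searched on the gene's strand, within 50 bases of the start on either side. It was present in 34 of 43 core genes (79.1%), in 22 of 25 large subunit and 12 of 18 small subunit core genes, and in 32% of the 27025 genes of the promoter table. The windows below show the longest such run, in capitals, for genes with large differences in the results that follow, for Rps6 and Rps2, and for the copy Rps23rg1. Such a run is a match of letters near the annotated start and need not be the tract with which the message begins.
Rps15a: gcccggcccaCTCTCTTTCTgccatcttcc
Rpl5: cctacagccaCTCTTTCTCacgtcgcttgc
Rpl27a: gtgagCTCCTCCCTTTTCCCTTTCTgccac
Rpl34: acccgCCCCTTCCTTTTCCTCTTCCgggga
Rpl36a: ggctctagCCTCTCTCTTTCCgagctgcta
Rpl37a: gcattgcgtCCCTTCCTCTTCggacttggg
Rpl26: cccaacctCCTCTCCCCTTTCgctccgaga
Rps6: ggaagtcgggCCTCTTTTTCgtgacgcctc
Rps2: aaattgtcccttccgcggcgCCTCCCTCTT
Rps23rg1: tgcagagagtCTTTCTCTCaccccagataa

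These windows lie at chr7:118116143-118116172 (minus strand) for Rps15a, chr5:107900498-107900527 (plus) for Rpl5 and chr7:109519186-109519215 (plus) for Rpl27a. Rpl34 is at chr3:130730330-130730359 (minus), Rpl36a at chrX:134585673-134585702 (plus), Rpl37a at chr1:72711275-72711304 (plus) and Rpl26 at chr11:68901509-68901538 (plus). Rps6 is at chr4:86857349-86857378 (minus), Rps2 at chr17:24720083-24720112 (plus) and Rps23rg1 at chr8:3567987-3568016 (plus). The runs themselves begin between -49 (Rpl26) and 41 (Rps2) bases from the annotated start, and that of Rps2 reaches the end of the searched window. No such tract was in the searched window of Rps3a1, Rps28 or Rps3.

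Short motifs were searched in the whole promoter on both strands. The letters CCGGAAG, the core that ETS factors bind, were in 17 of 43 core genes (39.5%) and in 9.93% of all genes of the table. GGGCGG, the letters of the SP1 box, were in 26 of 43 (60.5%) against 38.2% of all genes. The shares of TATAAA (11.6% of core genes against 15.7% of all), CACGTG (11.6% against 8.09%) and AAGATGG, the core of the YY1 motif (9.3% against 7.28%), lay closer to those of all genes. None of these motifs contains another, and a match of letters is not a bound site. The ETS letters of Rps3a1 and of Rps6 are shown in capitals, since Rps3a1 had the largest difference of all core genes between OB-control and N-control mice and Rps6 is the substrate of S6 kinase.
Rps3a1: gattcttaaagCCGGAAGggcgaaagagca
Rps6 (ETS): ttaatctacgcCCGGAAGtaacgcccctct

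The window of Rps3a1 is at chr3:86142659-86142688 (minus strand) and that of Rps6 at chr4:86857440-86857469 (minus strand).

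In ob/ob liver with TUDCA against ob/ob liver without it, the mean signal was higher in OB-TUDCA livers for 57 of the 63 genes and lower for 6, while 53.6% of all genes had a higher and 46.3% a lower mean. The median difference of the 63 genes was 0.27 on the log2 scale, a 1.21-fold difference, with quartiles of 0.16 and 0.33, and that of all genes was 0.01. No single gene passed the threshold, an adjusted p under 0.05 from limma over all genes, in either direction, where 0.301% of all genes passed it, 0.115% as higher and 0.186% as lower. Without adjustment, 38 of the 63 genes (60.3%) were higher at a p under 0.05, against 6.26% of all genes, and 1 was lower, against 5.72%. The 3 OB-TUDCA arrays all lay above the 3 OB-control arrays for 26 genes (41.3%, against 7.26% of all genes) and below them for 1 gene (against 6.53%). These genes share arrays and, in part, sequence, so the counts describe them and are not a test of the group.

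**Figure D1:**
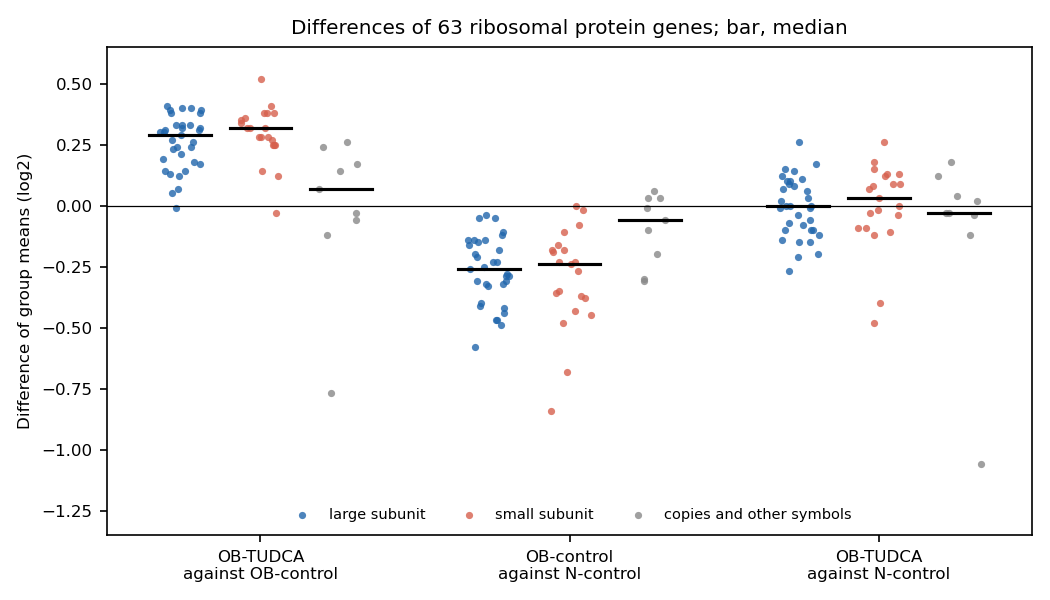
Differences between group means (log2 scale, vertical axis) of the 63 genes in each of the 3 comparisons, with a point per gene and a bar at each median. Core large subunit genes have medians of 0.29, -0.26 and 0.00 and core small subunit genes 0.32, -0.24 and 0.03, and the lowest grey points on the left and right are Rps23rg1.

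The large and the small subunit had medians close to each other. Their median differences between OB-TUDCA and OB-control mice were 0.25 over 38 large subunit genes, 34 of them higher, and 0.28 over 25 small subunit genes, 23 of them higher. With the core genes alone the medians were 0.29 (32 of 33 higher) and 0.32 (20 of 21 higher). The 9 copies and other symbols had a median of 0.07, and 5 of them were higher. No test was run on the difference between the subunits.

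Rps28, a small subunit protein, had the largest positive difference with TUDCA. Its log2 signals were 8.26, 8.43 and 8.15 on the OB-TUDCA arrays, 7.59, 8.02 and 7.67 on the OB-control arrays and 8.22, 8.26 and 8.13 on the N-control arrays. The OB-control arrays thus lay below both other groups, whose values overlapped. The difference between OB-TUDCA and OB-control was 0.52 (standard error 0.12), a 1.44-fold difference, with an adjusted p of 0.108 in limma, the lowest of the 63 genes. All of its 7 probe sets were read into that value.

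Rps3, a small subunit protein at the channel where the messenger RNA enters, was next. It read 9.65, 9.69 and 9.81 on the OB-TUDCA arrays, 9.10, 9.51 and 9.31 on the OB-control arrays and 9.53, 9.54 and 9.53 on the N-control arrays. Every OB-TUDCA value was above every value of the other groups, and every OB-control value was the lowest. The difference between OB-TUDCA and OB-control was 0.41 (standard error 0.10, adjusted p = 0.132).

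The 5 largest differences among large subunit genes were those of Rpl36 (0.41, standard error 0.17), Rpl37a (0.40, 0.12), Rpl26 (0.40, 0.17), Rpl36a (0.39, 0.15) and Rpl41 (0.39, 0.14), with adjusted p between 0.206 and 0.388. Rpl37a read 9.22, 9.23 and 8.94 in OB-TUDCA mice, 8.62, 8.96 and 8.61 in OB-control mice and 9.16, 9.01 and 8.96 in N-control mice. OB-control replicate 2 reached above OB-TUDCA replicate 3, so the groups overlapped. Rpl26, which in human cells also binds the p53 message, read 7.19, 7.38 and 7.10 in OB-TUDCA mice, 6.78, 7.23 and 6.46 in OB-control mice and 7.10, 7.10 and 6.97 in N-control mice. Its OB-control arrays spanned nearly the whole range of the 9 arrays.

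Rps23rg1, a copy of Rps23 made by retroposition, ran against the others. It read 4.86, 5.41 and 4.31 in OB-TUDCA mice, 5.87, 5.51 and 5.51 in OB-control mice and 6.35, 5.91 and 5.51 in N-control mice, each from 1 probe set. The OB-TUDCA values lay below those of both other groups, which overlapped. The difference between OB-TUDCA and OB-control was -0.77 (standard error 0.28, adjusted p = 0.303) and that between OB-TUDCA and N-control -1.06 (adjusted p = 0.0808). It was the only gene of the 63 whose OB-TUDCA arrays all lay below the OB-control arrays, and it had the largest spread within groups.

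The other 5 genes with a lower mean under TUDCA differed by at most 0.12. They were Rpl10l (-0.12, a testis copy of Rpl10), Rpl39l (-0.06, a testis copy of Rpl39), Rpl3l (-0.03, the muscle copy of Rpl3), Rps2 (-0.03) and Rpl22 (-0.01). Rpl39l and Rpl3l had log2 signals of 2.45 to 2.69 and 2.72 to 3.14 on the 9 arrays, among the dimmest of the 63.

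Rps2, a small subunit protein near the messenger RNA entry, was the core gene that varied least. It read 11.42, 11.34 and 11.47 in OB-TUDCA mice, 11.44, 11.43 and 11.43 in OB-control mice and 11.44, 11.46 and 11.45 in N-control mice. The groups overlapped in each comparison, and the differences of its 3 probe sets between OB-TUDCA and OB-control ran between -0.09 and 0.07.

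**Figure D2:**
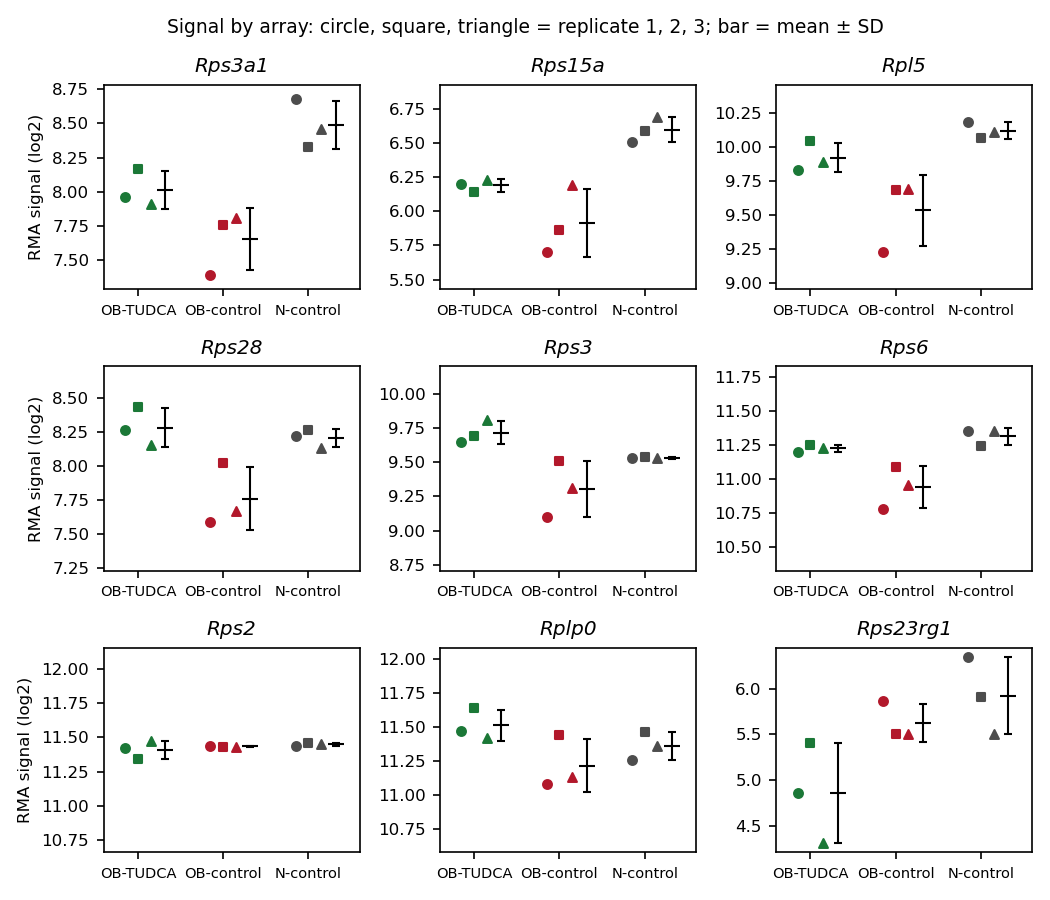
RMA log2 signal (vertical axes, each spanning its own range) of 9 named genes on the 3 arrays of each group, with the mean and SD (n = 3) as a bar to the right of each group. The OB-control mean is lowest for Rps3a1, Rps15a, Rpl5, Rps28, Rps3 and Rps6, Rps2 is level, and Rps23rg1 is lowest in OB-TUDCA mice.

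In untreated ob/ob liver against lean liver, the direction was the opposite. The mean was lower in OB-control livers for 60 of the 63 genes, all 54 core genes among them (the difference of Rps15 rounds to 0.00), while 42.9% of all genes had a lower and 57% a higher mean. The median difference was -0.23 over the 63 genes, against 0.02 over all genes, and it was -0.23 for the large and -0.24 for the small subunit. Rps3a1 and Rps15a fell past the threshold and no gene rose past it, where 0.948% of all genes passed it, 0.492% as lower and 0.456% as higher. Without adjustment 30 genes (47.6%) were lower at a p under 0.05, against 5.59% of all genes, and 0 were higher, against 6.55%. The OB-control arrays all lay below the N-control arrays for 31 genes (49.2%, against 6.77% of all genes) and above them for none (against 8.49%). Hepatocyte markers moved alongside, with 5 of 6 lower and list means of 12.70 to 12.80 on the OB-control and 12.91 to 12.95 on the N-control arrays, and their part in these values was not tested. Among those markers Apoa1 had the lowest p (difference -0.49, adjusted p = 0.0528). Rpl3l (0.06), Rps19bp1 (0.03) and Rpl39l (0.03) were the 3 genes with a higher mean.

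Rps3a1, a small subunit protein that also acts in translation initiation, fell the most. Its log2 signals were 7.96, 8.17 and 7.91 in OB-TUDCA mice, 7.39, 7.76 and 7.81 in OB-control mice and 8.68, 8.33 and 8.46 in N-control mice. The 3 groups did not overlap, and OB-TUDCA lay between the others. Compared with lean mice, OB-control signal fell by 0.84 in log2 units, to 0.559 of the lean signal (standard error 0.14, adjusted p = 0.0269 in limma). The difference between OB-TUDCA and OB-control was 0.36 (standard error 0.14, adjusted p = 0.319), and that between OB-TUDCA and N-control -0.48 (adjusted p = 0.1). Without any 1 of the N-control arrays or without OB-control replicate 1, the adjusted p of the fall lay between 0.0604 and 0.108. It was 0.057 with the acinar signal of the arrays as a covariate and 0.096 with only the arrays of these groups in the fit.

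Rps15a, a small subunit protein needed for the assembly of that subunit, was the other called gene. It read 6.20, 6.14 and 6.23 in OB-TUDCA mice, 5.70, 5.86 and 6.19 in OB-control mice and 6.51, 6.59 and 6.69 in N-control mice. The N-control arrays stood above all others, and OB-control replicate 3 reached into the OB-TUDCA range. It fell by 0.68 in OB-control mice compared with N-control mice (standard error 0.12, adjusted p = 0.0353 in limma). The difference between OB-TUDCA and OB-control was 0.28 (standard error 0.12, adjusted p = 0.396). The fall passed the threshold without OB-control replicate 3 (adjusted p = 0.0123) and missed it without any other single array (0.0617 to 0.125), with the acinar covariate (0.122) and with only the arrays of these groups (0.13). Rps3a1 and Rps15a were each read by 1 probe set.

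Rpl5, which carries the 5S RNA into the large subunit and can bind the p53 ligase Mdm2, was the large subunit gene with the largest difference. It read 9.83, 10.04 and 9.89 in OB-TUDCA mice, 9.23, 9.68 and 9.69 in OB-control mice and 10.18, 10.06 and 10.11 in N-control mice. No 2 groups overlapped. The difference between OB-control and N-control was -0.58 (standard error 0.13, adjusted p = 0.0805), and that between OB-TUDCA and OB-control was 0.38 (standard error 0.13, adjusted p = 0.251). Its 5 probe sets gave -0.72 to -0.51 and 0.33 to 0.41 for these differences.

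Rpl36a (-0.49), Rps20 (-0.48), Rpl34 (-0.47), Rpl27a (-0.47) and Rps28 (-0.45) followed, with adjusted p between 0.1 and 0.194. Rps20 read 9.71, 9.80 and 9.67 in OB-TUDCA mice, 9.12, 9.58 and 9.34 in OB-control mice and 9.85, 9.88 and 9.74 in N-control mice. Rpl34 read 7.18, 7.26 and 7.16 in OB-TUDCA mice, 6.64, 7.10 and 6.86 in OB-control mice and 7.34, 7.36 and 7.33 in N-control mice. For both genes the OB-control arrays lay below all others, and for Rpl34 the OB-TUDCA arrays also lay below the N-control arrays.

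Rps6, the small subunit protein phosphorylated by S6 kinase downstream of mTOR, read 11.20, 11.25 and 11.23 in OB-TUDCA mice, 10.78, 11.09 and 10.96 in OB-control mice and 11.35, 11.24 and 11.35 in N-control mice. The OB-control values were the lowest, and the other groups overlapped. The difference between OB-TUDCA and OB-control was 0.28 (standard error 0.09, adjusted p = 0.23), and that between OB-control and N-control was -0.37 (standard error 0.09, adjusted p = 0.117).

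Rps19, whose human gene is mutated in Diamond-Blackfan anaemia, read 6.50, 6.90 and 6.62 in OB-TUDCA mice, 6.13, 6.45 and 6.32 in OB-control mice and 6.45, 6.65 and 6.48 in N-control mice. The OB-TUDCA arrays were above the OB-control arrays (difference 0.38, standard error 0.12, adjusted p = 0.242), and N-control overlapped with both. Rps14, whose loss marks a subtype of human myelodysplastic syndrome, read 10.32, 10.51 and 10.08 in OB-TUDCA mice, 9.80, 10.23 and 9.87 in OB-control mice and 10.07, 10.06 and 10.00 in N-control mice. The N-control arrays lay inside the OB-control range and below every OB-TUDCA array, and the differences were 0.34 between OB-TUDCA and OB-control (adjusted p = 0.351) and -0.08 between OB-control and N-control (adjusted p = 0.879).

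The genes for the stalk proteins, to which elongation factors bind, differed less in signal between OB-control and N-control mice than most core genes. Rplp0 read 11.47, 11.64 and 11.42 in OB-TUDCA mice, 11.08, 11.44 and 11.13 in OB-control mice and 11.26, 11.46 and 11.36 in N-control mice, and all groups overlapped. Its difference was 0.29 between OB-TUDCA and OB-control (standard error 0.11, adjusted p = 0.337) and -0.14 between OB-control and N-control (adjusted p = 0.679). Rplp1 differed by 0.19 and -0.05 and Rplp2 by 0.14 and -0.04 in these comparisons, with overlapping arrays and adjusted p of at least 0.623. Rplp2 was read by 1 probe set with dim log2 signals of 5.07 to 5.47, which limits what its differences show. Rpsa, a small subunit protein that is also known as a laminin receptor, read 9.05, 9.20 and 8.92 in OB-TUDCA mice, 8.64, 9.20 and 8.58 in OB-control mice and 8.98, 9.04 and 8.93 in N-control mice. OB-control replicate 2 equalled the highest OB-TUDCA array, while the other OB-control arrays were the lowest of the 9.

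The remaining copies and other symbols had small differences, Rps4l and Rpl32l excepted. Rps4l, a copy of Rps4x, read 6.17, 6.20 and 6.15 in OB-TUDCA mice, 5.86, 5.95 and 5.93 in OB-control mice and 6.33, 6.22 and 6.11 in N-control mice. OB-control lay below both other groups, with differences of 0.26 between OB-TUDCA and OB-control (standard error 0.08, adjusted p = 0.193) and -0.31 between OB-control and N-control (adjusted p = 0.131). Its 2 probe sets were unlike in these comparisons, with 0.43 and -0.57 on 1 and 0.10 and -0.04 on the other. On the latter set OB-control and N-control overlapped. Rpl32l differed by 0.24 and -0.20 in these comparisons, Rps27l, a p53 target, by 0.07 and -0.10, Rpl7l1, a factor of large subunit assembly, by 0.17 and -0.06, and Rps19bp1, a partner of the deacetylase Sirt1, by 0.14 and 0.03.

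Between OB-TUDCA and N-control mice the 63 genes showed no common direction. The mean was higher in OB-TUDCA livers for 31 genes (59.6% of all genes) and lower for 32 (40.3% of all genes), with a median of 0.00, against 0.04 over all genes, and quartiles of -0.10 and 0.10. No gene passed the threshold in limma, where 3.24% of all genes did, 1.35% as higher and 1.89% as lower. Without adjustment 4 genes, Rpl12, Rps15a, Rps3a1 and Rps23rg1, were lower at a p under 0.05 (6.35%, against 8.15% of all genes), and none was higher (against 10.4%). Arrays of OB-TUDCA all lay above those of N-control for 5 genes (against 11.8% of all genes) and below them for 6 (against 8.95%). Rps15a differed by -0.40 (adjusted p = 0.111) and Rpl12 by -0.27 (adjusted p = 0.262). The 3 comparisons share arrays in pairs, so their values are only set side by side.

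The spread between arrays of a group took a form common to most of these genes. OB-control replicate 1 was the lowest of the 9 arrays for 48 of the 63 genes (76.2%), 27 of the large and 21 of the small subunit, while it was the lowest for 9.99% of all genes. OB-TUDCA replicate 2 was the highest for 25 genes (39.7%, against 15.3% of all genes) and N-control replicate 1 for 17 (27%, against 8.8%). Within OB-control mice, replicate 1 was lowest, replicate 3 in the middle and replicate 2 highest for 44 genes (69.8%), an order found in 14.2% of all genes. Within OB-TUDCA mice, replicate 3 was lowest and replicate 2 highest for 33 genes (52.4%), with replicate 1 between them, against 16.6% of all genes.

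**Figure D3:**
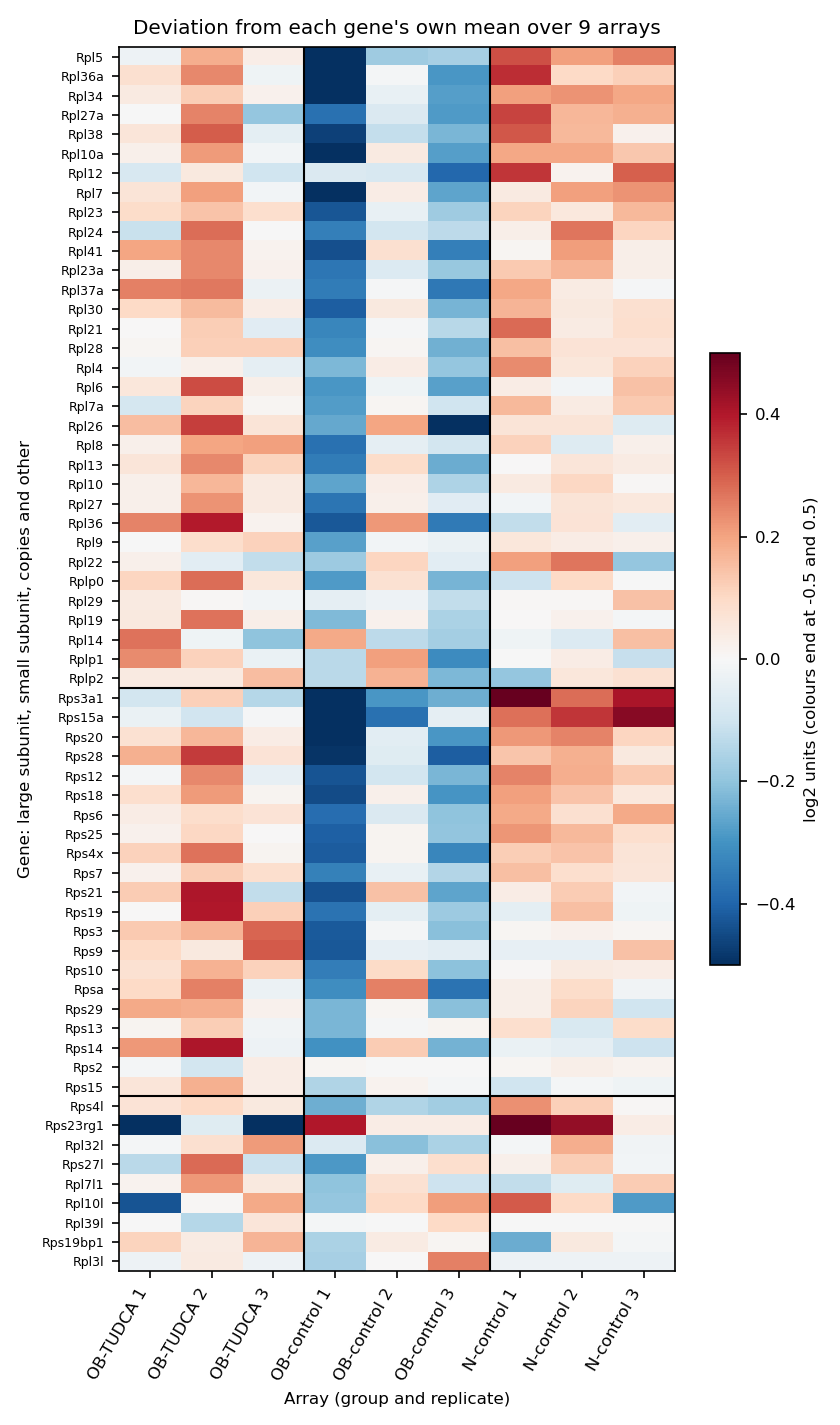
Deviation of each of the 63 genes (rows) from its own mean over the 9 arrays (columns, by group), in log2 units from blue (low) to red (high), with large subunit, small subunit and other symbols set apart by lines and each block sorted by the difference between OB-control and N-control. OB-control replicate 1 is blue in 48 rows where it is the lowest array, and OB-control replicate 2 is paler in most rows. Colours end at deviations of -0.5 and 0.5.

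The mean log2 signal of the 63 genes was 8.58, 8.71 and 8.56 on the OB-TUDCA arrays, 8.24, 8.55 and 8.37 on the OB-control arrays and 8.66, 8.64 and 8.61 on the N-control arrays. Its SD over 3 arrays was 0.0814 in OB-TUDCA, 0.153 in OB-control and 0.0261 in N-control mice. OB-control replicate 2 lay just below the lowest OB-TUDCA array, whereas replicates 1 and 3 were the lowest of the 9. Both subunits followed the same arrays. The mean deviation of core genes from their own mean on OB-control replicates 1, 2 and 3 was -0.32, 0.01 and -0.22 for the large subunit and -0.37, -0.02 and -0.20 for the small subunit. On OB-TUDCA replicate 2 it was 0.18 for both. On no array did the subunits differ by more than 0.05. The low values of OB-control replicate 1 were not particular to the subunit genes. The 33 ribosome assembly genes described below deviated by -0.23, -0.07 and -0.01 on OB-control replicates 1, 2 and 3. On OB-control replicate 1, initiation factors lay at -0.17, the elongation factor list at -0.15, proteasome genes at -0.10 and mitochondrial ribosome genes at -0.06.

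The median SD within groups was 0.143 over the 63 genes and 0.137 over all genes. By group, the median SD of the 63 genes was 0.106 in OB-TUDCA mice, 0.197 in OB-control mice and 0.0766 in N-control mice, where all genes had 0.122, 0.117 and 0.106. The OB-control group was thus the only one in which their median exceeded that of all genes. When the mean of the 63 genes on each array was subtracted, the median SD of the core genes was 0.0851, compared with 0.144 before. After Rps23rg1 (0.417), the largest SDs within groups were those of Rpl10l (0.28), Rpl26 (0.241), Rpl36 (0.237) and Rps21 (0.232), and the smallest was that of Rps2 (0.0405).

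The differences between groups rested in part on these arrays. Without OB-control replicate 1, 12 of the 63 genes had an unadjusted p under 0.05 for a higher signal with TUDCA, where 4.49% of all genes did, and the median difference was 0.19. Without OB-control replicate 2, the values were 46 genes, 6.15% of all genes and 0.35. Without OB-TUDCA replicate 2, 16 genes were counted (4.99% of all genes), and without OB-control replicate 3, 20 (5.75%). Calls over all genes moved too, with 0 to 135 genes past the adjusted threshold when single arrays were left out, against 60 with all arrays. The mean was higher in OB-TUDCA mice for 56 to 58 of the genes whichever array was left out. Between OB-control and N-control mice, 55 to 61 genes had a lower mean and the median ran between -0.34 and -0.19.

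The probe sets of a gene mostly shared a direction. Of the 219 probe sets, 212 had a higher mean with TUDCA than without it in ob/ob mice, and 213 a lower mean in untreated ob/ob mice than in lean ones. Of the 39 genes with several probe sets, all sets were higher with TUDCA in 38 and all were lower in OB-control in 36. Rps12, with 14 probe sets, differed by 0.15 to 0.41 between OB-TUDCA and OB-control and by -0.59 to -0.31 between OB-control and N-control. Such sets are not independent readings, since processed copies of these genes share their sequence, and 19 probe sets of 5 genes held the same 9 values as another set of their gene.

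A further 20 symbols of the rule were read only by probe sets with several symbols and so are no part of the counts above. Rpl37 and Rpl37rt shared their probe sets, as did Rps27 and Rps27rt, which leaves 18 distinct readings. Among them were Rpl11, the partner of Rpl5 in the 5S particle, and Rpl13a, which in human myeloid cells can leave the ribosome to silence inflammatory messages. With TUDCA all 20 had a higher mean than in OB-control mice, with a median of 0.29 (53.7% of all genes in that fit were higher), and in untreated ob/ob liver all had a lower mean than in lean liver, with a median of -0.34 (43% of all genes were lower). Rpl11 differed by 0.29 and -0.18 in these comparisons, and Rpl13a by 0.39 and -0.34. In a fit with these symbols added, Rpl22l1, a copy of Rpl22, was the only one of the 20 past the threshold. The share of all genes past it in that fit is not given here. In the main fit it was 0.948% for OB-control and 3.24% for OB-TUDCA, each against N-control.

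Rpl22l1 read 4.25, 4.40 and 4.17 in OB-TUDCA mice, 4.0, 4.21 and 4.32 in OB-control mice and 5.29, 5.01 and 4.69 in N-control mice. Both ob/ob groups lay below the N-control arrays and overlapped with each other. Their values were dim, below the array medians over all genes (4.50 to 4.58). Compared with N-control mice, Rpl22l1 fell by 0.82 in OB-control mice (adjusted p = 0.0424 in limma) and by 0.72 in OB-TUDCA mice (adjusted p = 0.0342). It differed by 0.10 between OB-TUDCA and OB-control (adjusted p = 0.844). Leaving out single arrays gave adjusted p of 0.0203 to 0.174 for the first fall and 0.0176 to 0.113 for the second. Rpl22 itself, read on its own probe set, differed by -0.14 between OB-control and N-control and by -0.01 between OB-TUDCA and OB-control.

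Other genes of protein synthesis give these values a setting. Fau, whose product holds a small subunit protein that lacks an Rps symbol, read 9.40, 9.57 and 9.30 in OB-TUDCA mice, 9.11, 9.26 and 9.11 in OB-control mice and 9.15, 9.24 and 9.07 in N-control mice. It was highest in OB-TUDCA mice, with a difference of 0.26 from OB-control (adjusted p = 0.279), while OB-control and N-control overlapped. Of 77 genes for proteins of the mitochondrial ribosome, which are made in the cytosol for a separate ribosome, 39 had a higher mean and 38 a lower one with TUDCA than without it, with a median of 0.01. Their median between OB-control and N-control was -0.02, and no gene of the list passed the threshold in either comparison. Against N-control mice, Mrpl1 fell by 0.51 (adjusted p = 0.00532), Mrps27 fell by 0.36 (adjusted p = 0.0263) and Mrps34 rose by 0.36 (adjusted p = 0.0454) in OB-TUDCA mice. With single arrays left out, the adjusted p reached 0.0269 for Mrpl1, 0.0906 for Mrps27 and 0.172 for Mrps34. Of 14 proteasome genes 9 had a higher mean with TUDCA (median 0.00), and of 9 housekeeping genes 6 (median 0.06), and none of either list passed the threshold. The lowest p in these lists belonged to Psmb5 (0.51 between OB-TUDCA and N-control, adjusted p = 0.0545) and Gusb (0.47, adjusted p = 0.0711).

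Of 33 genes for ribosome assembly in the nucleolus, 32 had a higher mean with TUDCA than without it, with a median of 0.22, and 1 passed the threshold. This was Nop56, a core protein of the particles that methylate ribosomal RNA. Nop56 read 7.35, 7.51 and 7.30 in OB-TUDCA mice, 6.59, 6.79 and 6.79 in OB-control mice and 6.93, 7.13 and 6.99 in N-control mice. The groups did not overlap, with OB-TUDCA highest. With TUDCA it rose by 0.67 over OB-control (standard error 0.09, adjusted p = 0.0323 in limma, 0.0427 to 0.131 with single arrays left out). Between OB-control and N-control the list was divided, with 13 genes higher, 20 lower, a median of -0.02 and no call.

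Against N-control mice, 28 of the 33 assembly genes had a higher mean in OB-TUDCA livers, with a median of 0.20, where the ribosomal protein genes had 0.00. Nhp2, a protein of the particles that guide pseudouridine formation, rose by 0.66 (adjusted p = 0.0305), Nle1, a large subunit assembly factor, by 0.46 (adjusted p = 0.0371) and Bop1, which acts in large subunit processing, by 0.44 (adjusted p = 0.0498). Nhp2 read 7.17, 7.27 and 7.32 in OB-TUDCA mice, 6.77, 6.87 and 6.90 in OB-control mice and 6.27, 6.87 and 6.62 in N-control mice. The OB-TUDCA arrays lay above all others. With single arrays left out, the adjusted p of these 3 genes reached 0.11, 0.116 and 0.15.

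Of 12 genes on a list of elongation factors and other messages held to carry such a tract, 11 had a higher mean with TUDCA than without it (median 0.19). None passed the threshold, and whether these 12 genes hold the run searched above is not given here. Vim, the intermediate filament protein vimentin, rose by 0.60 in OB-TUDCA against N-control mice (adjusted p = 0.0321, up to 0.127 with single arrays left out). Eif3e, a subunit of the initiation factor that binds the small subunit, had differences of 0.32 between OB-TUDCA and OB-control (adjusted p = 0.16) and -0.36 between OB-control and N-control (adjusted p = 0.116). Of 16 initiation factors and their regulators, 12 had a higher mean with TUDCA (median 0.11). Eif2a fell by 0.58 (adjusted p = 0.0353) and Eif4a2, an RNA helicase, by 0.56 (adjusted p = 0.0422) in OB-control compared with N-control mice. Eif4a2 also fell by 0.49 in OB-TUDCA against N-control mice (adjusted p = 0.0333). Eif6, which keeps free large subunits from joining small ones, rose by 0.97 in OB-TUDCA compared with N-control mice (adjusted p = 0.0123). With single arrays left out, the adjusted p of these calls reached 0.149 for Eif2a, 0.161 for Eif4a2 and 0.0571 for Eif6.

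Of 22 genes for RNA polymerase I and regulators around mTOR and Myc, 15 had a higher mean with TUDCA than without it (median 0.06), with no call. Mycn, a Myc family factor, read 4.82, 4.46 and 4.84 in OB-TUDCA mice, 3.95, 4.21 and 4.14 in OB-control mice and 4.37, 4.38 and 4.05 in N-control mice. Its signal was dim, with every OB-control and N-control value below the array medians over all genes (4.50 to 4.58). The OB-TUDCA arrays were the highest, with a difference of 0.61 from OB-control (adjusted p = 0.0981). Myc itself did not share this order, and its groups all overlapped. It read 5.65, 5.41 and 6.33 in OB-TUDCA mice, 5.51, 5.75 and 5.93 in OB-control mice and 6.54, 6.47 and 5.19 in N-control mice. Sesn2, an inhibitor of mTOR signalling that responds to stress, differed by 0.57 between OB-TUDCA and OB-control (adjusted p = 0.181) and rose by 0.82 in OB-TUDCA compared with N-control mice (adjusted p = 0.0294, up to 0.0923 with single arrays left out).

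**Figure D4:**
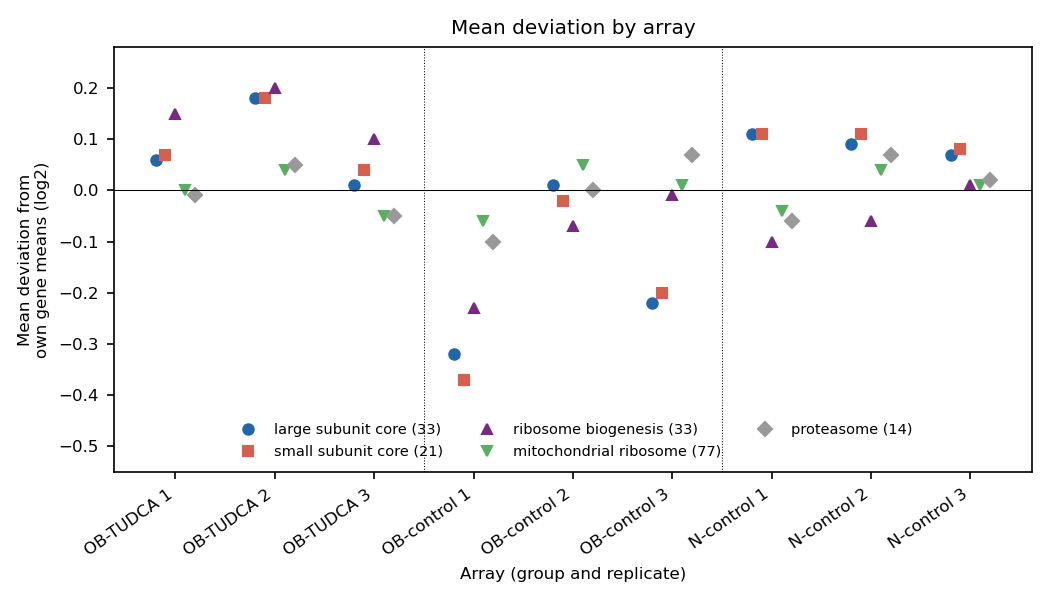
Mean deviation of gene groups from their own gene means (log2 units, vertical axis) on each of the 9 arrays (horizontal axis, by group), with a marker for each group of genes. Both subunits lie at -0.32 and -0.37 on OB-control replicate 1 and move together on every array. Ribosome biogenesis genes lie at -0.23 on that array and at 0.20 on OB-TUDCA replicate 2, but at -0.01 on OB-control replicate 3. Mitochondrial ribosome and proteasome genes stay within 0.10 of 0.

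Cell type markers moved with treatment in part. Of 6 endothelial markers, 4 had a higher mean with TUDCA than without it, and the mean log2 signal of the list was 7.55 to 7.81 on the OB-TUDCA arrays, 7.0 to 7.46 on the OB-control arrays and 6.96 to 7.20 on the N-control arrays. Its members ran both ways, and 1 passed the threshold between OB-TUDCA and OB-control. This was Cd93, a membrane protein of endothelial cells, which read 6.85, 7.63 and 7.76 in OB-TUDCA mice, 5.88, 5.74 and 6.11 in OB-control mice and 5.47, 5.10 and 5.79 in N-control mice. The OB-TUDCA arrays were the highest, and the rise over OB-control was 1.51 (standard error 0.25) with an adjusted p that lay just inside the threshold and rounds to 0.05 (0.0171 to 0.193 with single arrays left out). Lyve1 differed by 1.61 and Kdr by -0.93 in that comparison, each with an adjusted p of 0.108. Against N-control mice, Cd93 rose by 1.96 (adjusted p = 0.00532), Lyve1 rose by 2.44 (adjusted p = 0.011) and Kdr fell by 1.17 (adjusted p = 0.0218) in OB-TUDCA mice, and with single arrays left out these reached 0.0334, 0.0578 and 0.0999. Of the erythroid markers, Alas2 fell by 0.85 (adjusted p = 0.0152) and Slc4a1 rose by 0.71 (adjusted p = 0.0155) in OB-TUDCA against N-control mice, reaching 0.0584 and 0.0579 without single arrays. Of 6 Kupffer cell and macrophage markers 4 had a higher mean with TUDCA, with list means of 6.99 to 7.59 in OB-TUDCA, 6.97 to 7.22 in OB-control and 6.92 to 7.20 in N-control mice, and Marco (0.71 between OB-TUDCA and OB-control, adjusted p = 0.362) had the lowest p in the list. All 6 stellate cell markers (7.34 to 7.51 in OB-TUDCA, 7.20 to 7.29 in OB-control, 7.21 to 7.26 in N-control mice), all 4 cholangiocyte markers (5.0 to 5.23, 4.68 to 4.91 and 4.75 to 5.25 in that order of groups) and all 6 neutrophil markers (3.26 to 3.80, 3.25 to 3.33 and 3.10 to 3.21) had a higher mean with TUDCA. Markers of T and NK cells (3.71 to 3.99) and B cells (3.14 to 3.40) were dim on every array, as was the neutrophil list. No neutrophil marker had an unadjusted p under 0.05 in limma between OB-TUDCA and OB-control. The part of these cells in the ribosomal protein values was not tested, and in bulk liver fewer cells of a type and less RNA per cell cannot be told apart.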

How the data were processed

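The authors summarized the scans with RMA in Affymetrix Expression Console, whose version is not given in the sources used here, and deposited log2 signals per probe set. RMA corrects the background and makes the arrays' distributions alike, which would remove a change shared by all genes. The deposited values were used without further normalization or filter. Of 35556 probe sets, 21789 had 1 gene symbol, 1621 several and 12146 none, and sets of a symbol were averaged. A linear model of 3 group means was fitted over all 9 arrays with limma 3.58.1 (R 4.3.3), with 6 residual and 3.33 prior degrees of freedom and two-sided tests, with Benjamini-Hochberg adjustment over 19938 genes and a threshold of 0.05. The fit was tested on simulated data with independent noise for each gene and array, which lack the shifts between arrays that these genes share. p-values measure the spread between these arrays, whose number limits the precision, and an exact permutation test of 3 against 3 cannot go below 0.1.

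Members and gene lists were chosen with earlier results of these data known. Named genes are those past the threshold, the 5 largest positive and negative differences per comparison, the copies, stalk proteins, Rpsa, Rps6, Rps14, Rps19, Rpl5, Rpl11 and Rpl13a, the 5 largest SDs within groups, and genes of other lists past the threshold. Of lists with no such gene, that of lowest p is given for the hepatocyte, Kupffer cell, proteasome and housekeeping lists only. Mycn and Eif3e fall outside this rule, and Rps12 and Rps15 were named after their values were seen. Sequences are from RefSeq (GRCm38.p6). Alternatives covered normalization, scaling, filter, prior, weights, covariate, block, probe sets, fold limits and each array left out. Figures were drawn with matplotlib.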

Additional observations from a re-analysis of the deposited data

How the results depend on the processing

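The direction of the medians in OB-TUDCA against OB-control and in OB-control against N-control was kept under every alternative run. With probe sets tested on their own, 212 sets had a higher mean with TUDCA and 140 were higher at an unadjusted p under 0.05, and in OB-control against N-control 213 had a lower mean, 131 were lower unadjusted and the small subunit median was -0.34. In OB-TUDCA against N-control, 107 sets had a higher mean and 9 were lower unadjusted. With several-symbol probe sets added, 49 genes were lower unadjusted in OB-control against N-control, and 1 was called lower in OB-TUDCA against N-control. Calls of lower genes in OB-control against N-control numbered 6 with array weights, 0 with only those 6 arrays, 0 with the acinar mean as a covariate and 1 with the replicate block. The block gave 1 called lower gene (Rps23rg1, adjusted p = 0.0368) and 1 higher unadjusted in OB-TUDCA against N-control. Under the block the fall of Rps3a1 in OB-control mice had an adjusted p of 0.0557 and that of Rps15a 0.0308. No label says that a number marks a shared litter or batch. Deviations of same-numbered arrays correlated at -0.08 to 0.21, mostly above 0 and over 0.1 in 4 of 9 pairs. Those of other arrays correlated at -0.30 to 0.23, mostly below 0. Without such a label the numbers were not taken as pairs, and whether they mark an order of processing was not tested. In OB-TUDCA against N-control, unadjusted higher genes numbered 1 with array weights, 1 with only those arrays and 2 with quantile normalization. The methods' fold limits called 1 lower gene in OB-TUDCA against OB-control and 1 in OB-TUDCA against N-control. Without the copies and other symbols, 0 genes were lower unadjusted in OB-TUDCA against OB-control. The shares over all genes or probe sets under the other settings of this paragraph are not given here.

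With single arrays left out, OB-TUDCA against OB-control gave 12 to 46 genes higher and 0 to 1 lower unadjusted. Of all genes, 4.49% to 6.74% were higher and 4.53% to 6.02% lower in these fits. The small subunit median was 0.20 to 0.39. OB-control against N-control gave 0 to 6 called lower and 21 to 42 lower unadjusted. Of all genes, 4.15% to 6.01% were lower unadjusted, and 60 to 266 passed the adjusted threshold in either direction. The medians were -0.34 to -0.19 over all 63 genes and -0.34 to -0.20 for the large subunit. Among the 63 genes there were 0 calls without OB-control replicate 1 or any N-control array, 1 without any OB-TUDCA array and 6 without OB-control replicate 2. OB-TUDCA against N-control gave 0 to 2 higher unadjusted and 0 to 1 called lower. Of all genes, 7.21% to 10.5% were higher unadjusted, and 193 to 788 passed the adjusted threshold in either direction. The cause of these shifts was not tested. Signal over background is not in the deposited values used here, and the smallest called difference of the 63 genes was 0.68 on the log2 scale.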
